A study of Mus musculus with 7 samples.

Results

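The genes of the mitochondrial ribosomal proteins were taken from the count files by symbol, as every mouse gene named Mrpl or Mrps followed by a number and at most 1 letter, with pseudogenes left out. This gave 78 genes of 49315, of which 49 carry a large-subunit symbol (Mrpl) and 29 a small-subunit symbol (Mrps). The symbol alone decided membership, and whether every product, such as that of Mrps36, is part of the ribosome was not tested. Islets, the hormone-secreting cell clusters of the pancreas, came from mice aged 7 days. The 3 control pools, numbered 1, 2 and 4, were from Nrf2lox/lox mice, in which the Nrf2 gene carries loxP sites and is intact. The 4 βNrf2KO pools, numbered 1 to 4, were from mice with Nrf2 deleted in β-cells, and the promoter that drives Cre was not given in the sources used here. RNA of 5 animals was combined in each pool, so every p-value measures the spread between pools and not between animals. The sample titles speak of single mice by number, against that protocol, and do not say what a number stands for. The question of the series is how Nrf2, which is encoded by Nfe2l2 and activates antioxidant genes, acts on growth of neonatal β-cells and on their mitochondria.

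Mitochondria make a small set of respiratory chain proteins from their own genome on a ribosome that differs from the cytosolic one. The ribosomal RNAs of that ribosome come from mitochondrial DNA, while all of its proteins are encoded in the nucleus, made in the cytosol and imported. The small subunit reads the mRNA, and the large subunit forms the peptide bond and anchors the ribosome to the inner membrane. β-cells depend on mitochondrial respiration to couple glucose metabolism to insulin release.

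The Cre sequence had 24, 23, 46 and 73 counts in βNrf2KO pools 1 to 4 and 0 in each control pool. Nfe2l2 itself had 86.1, 43.2 and 48.4 CPM (counts scaled to library size with TMM normalization) in control pools 1, 2 and 4, and 66.8, 57.8, 67.3 and 58.6 CPM in βNrf2KO pools 1 to 4. Its log2 fold change (βNrf2KO minus control) was 0.08 ± 0.23 (SE, edgeR adjusted p = 0.911), and whether its reads cover the deleted exons was not tested. Total counts ran from 18187382 to 25373105 per pool. Transcripts of the mitochondrial genome took 14.6% to 51.8% of counts in the control pools and 10.02% to 27.7% in the βNrf2KO pools. All 9 islet endocrine markers were detected in every pool and summed to 22600 to 62480 CPM in the control and 41290 to 65190 CPM in the βNrf2KO pools. All 10 mesenchymal markers had lower fitted values in βNrf2KO (median log2 fold change -0.82). They summed to 1052 to 2770 CPM in the control and 993 to 1652 CPM in the βNrf2KO pools, with none at 0 in any pool. All 11 tested acinar markers, of 15 listed, also had lower fitted values, and the list summed to 86.7 to 417 CPM in the control and 69.8 to 236 CPM in the βNrf2KO pools. All 6 neural and glial markers had lower fitted values as well (median -0.85), at 69.3 to 113 CPM in the control and 56.3 to 74.1 CPM in the βNrf2KO pools, with none at 0. Of the acinar markers Amy2a2 was at 0 in every pool, and Pnlip, Amy2b and Ptf1a were at 0 in at least 1. Fitted values were higher for 6 of 9 endocrine (median 0.32), 6 of 7 endothelial (0.24) and 4 of 6 ductal markers (0.365). They were lower for 6 of 7 leukocyte (median -0.44) and 5 of 6 erythroid markers (-0.37). The part of these markers and of the mitochondrial share in the results on ribosomal proteins was not tested, apart from the fit with the acinar markers as a covariate given below.

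The promoters of 1 member that was higher and 1 that was lower in every βNrf2KO pool than in every control pool are shown because they hold letters that the members were searched for. Mrpl50, a large-subunit protein found only in mitochondrial ribosomes, had the smallest p among the members with higher values in βNrf2KO. Mrpl52, also specific to mitochondria, was the lower one, by a small difference that 9 members exceeded. The stretches run 5′ to 3′ on the strand of the gene and end at the base before the gene start in the count files. The first is chr4:49521094-49521175, minus strand, which stops at the first exon of the neighbouring gene Zfp189, and the second is chr14:54426659-54426908, plus strand (RefSeq, GRCm38.p6). Capitals mark the letters TGACNNNGC of an antioxidant response element in Mrpl50, and the letters CCGGAAG of an ETS core in Mrpl52, both on the opposite strand.
Mrpl50: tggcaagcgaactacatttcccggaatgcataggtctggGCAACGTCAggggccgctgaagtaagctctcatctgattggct
Mrpl52: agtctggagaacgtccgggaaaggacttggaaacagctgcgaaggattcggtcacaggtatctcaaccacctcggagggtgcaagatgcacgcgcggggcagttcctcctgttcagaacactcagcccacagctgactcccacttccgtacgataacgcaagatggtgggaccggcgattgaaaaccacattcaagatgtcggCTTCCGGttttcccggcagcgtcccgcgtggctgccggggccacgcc

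The letters of known binding motifs were searched on both strands in the window of 250 bases before to 50 after each RefSeq start, which the promoter table held for 69 of the 78 genes. The core CCGGAAG, bound by ETS factors such as the nuclear respiratory factor GABP, was in 37.68% of members against 17.67% of 11669 tested protein-coding genes, members included, and 9.93% of all 27025 genes in the table. It was in 34.88% of large-subunit and 42.31% of small-subunit promoters. The motif of NRF-1, another activator of nuclear genes for mitochondria, was in 4.35% of members in its palindromic form and in 18.84% with 1 central base left free, which includes the former, against 2.09% and 10.16% of the tested protein-coding genes and 1.07% and 5.19% of the whole table. The letters of YY1, a zinc finger factor, were in 7.25% in a long form and in 11.59% as the shorter AAGATGGCG that it contains, against 1.53% and 3.09% of the tested genes and 0.75% and 1.64% of the table. The antioxidant response element TGACNNNGC, the site that Nrf2 binds with a small Maf partner, was in 14 members or 20.29%, against 16.69% of the tested genes and 13.99% of the table. Median GC content was 58.7% in members and 60% in the tested protein-coding genes. Mrpl37 and Mrpl35, both higher in every βNrf2KO pool than in every control pool, held both forms of the YY1 letters. Their promoters are not shown. A match describes letters and is not evidence of binding.

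The genes lay on 17 chromosomes, with 11 on chromosome 11, 8 on chromosome 17, 7 on chromosome 6 and none on the X chromosome. A protein-coding gene started in the opposite direction within 1000 bp of 30 members (38.5%), against 14.2% of 15017 tested protein-coding genes. The share was 42.9% for the large and 31.0% for the small subunit. Among these pairs, picked as examples, Mrps12 lies 172 bp from Sars2, the mitochondrial seryl-tRNA synthetase, and Mrpl43 lies 116 bp from Twnk, the helicase of mitochondrial DNA replication. Mrpl46 and Mrps11, a large and a small subunit gene, start on opposite strands of overlapping sequence. Mrpl32 was paired with Psma2, a proteasome subunit, at 205 bp, and Mrpl49 with Fau, which encodes a cytosolic ribosomal protein fused to a ubiquitin-like protein, at 137 bp. Median exonic length was 2068 bp for members, 2011 bp for the large and 2072 bp for the small subunit, against 4111 bp for the tested protein-coding genes.

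All 78 genes had counts, and 77 passed the filter on low counts. Levels between genes were compared per length, as TPM, which scales counts per exonic kilobase to the same total over nuclear genes in each pool. The order therefore depends on the annotated exonic length. In the control pools Mrpl34 (607 bp) had 5.52 CPM and 39.1 TPM, while Mrps35 (8631 bp) had 6.95 CPM and 3.46 TPM. Whether the transcripts in these islets hold the whole exonic length was not tested. In the control pools 49 of 78 genes were above 10 TPM. The highest were Mrpl24 at 47.5 ± 9.04 TPM (SD, n = 3) and Mrpl36 at 43.2 ± 13.8 TPM, both homologues of bacterial large-subunit proteins, followed by Mrps21 of the small subunit at 41.1 ± 9.76 TPM and Mrpl34 at 39.1 ± 11.5 TPM. These neighbours lay within each other's spread. Over the 7 pools Mrpl24 held ranks 1 to 7, Mrpl36 and Mrps21 ranks 1 to 8, and Mrpl34 ranks 1 to 13. After Mrps21, the highest small-subunit genes were Mrps2 at 31.8 ± 3.39 TPM and Mrps18b at 25.3 ± 1.81 TPM.

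At the other end of the order, Mrps35 had 3.46 ± 0.97 TPM, Mrps25 had 3.31 ± 0.57 TPM and Mrpl46 had 3.26 ± 1.00 TPM, values that overlapped. Mrpl53, a large-subunit protein, was last in every pool at 1.148 ± 0.29 TPM, with 27 counts over all pools, and it alone failed the filter. Exons of other genes covered 88.0% of its exonic bases on the same strand, so reads could have been withheld from it or assigned to its neighbours. Of the 9 other members with at least 20% of their exonic bases covered, Mrps34 (77.8% in all, 37.0% on the same strand) and Mrps18c (23.2%, all on the same strand) share sequence with genes of their own strand. The others were covered on the opposite strand alone, among them Mrps25 (69.8%), Mrps30 (37.8%), Mrps18b (30.5%) and Mrpl24 (26.3%). Because the strand setting of the counting was not given in the sources used here, levels of all 10 are uncertain. Pseudogenes named after members had few counts: Mrps36-ps2 had 13 over all pools against 409 for Mrps36, and Mrpl23-ps1 had 5 against 594 for Mrpl23. Copies under other names were not searched. The rule for multi-mapped reads is not given, so these counts do not show how many reads the members lost to copies.

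**Figure D1:**
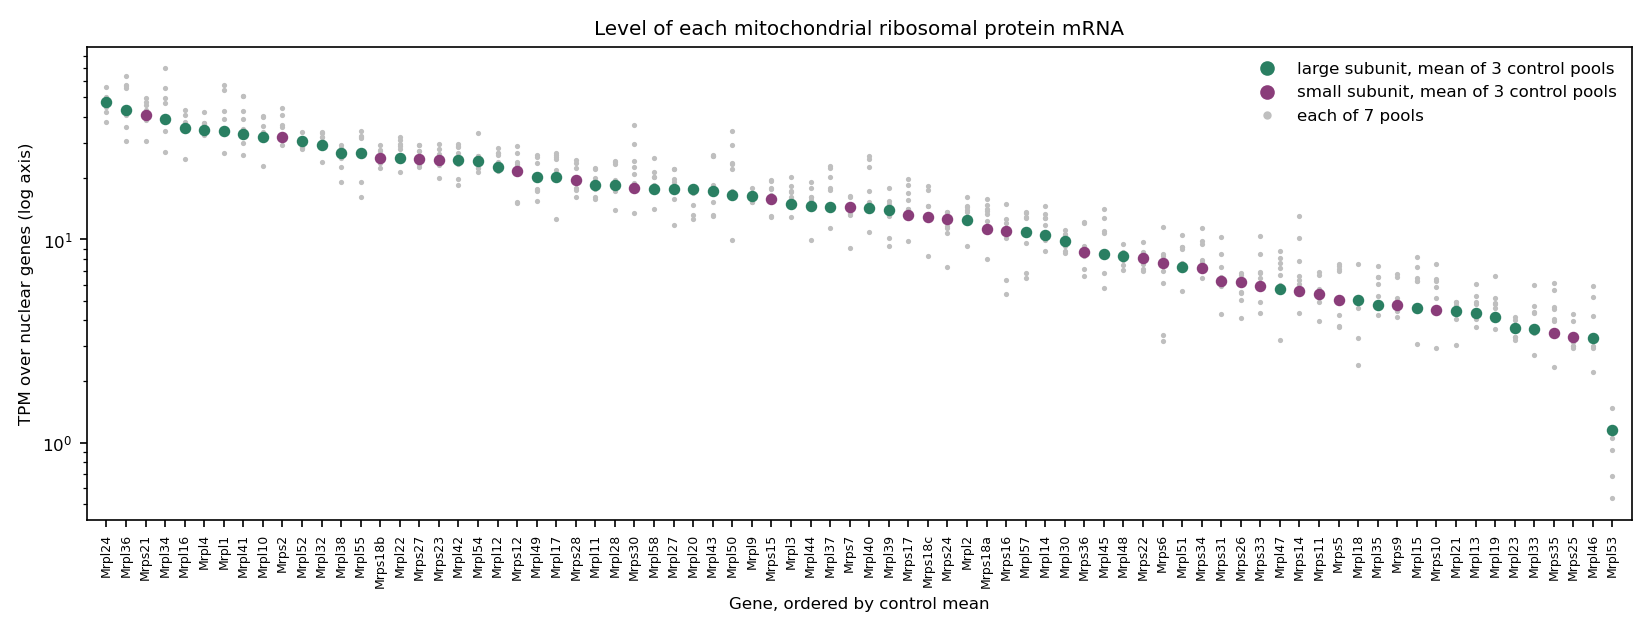
Level of each of the 78 genes in TPM (log axis), ordered by the mean of the 3 control pools (large points, green for the large and purple for the small subunit), with each of the 7 pools as a grey point. Mrpl24, Mrpl36, Mrps21 and Mrpl34 head the order and Mrpl53 closes it at 1.148 TPM.

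By the median and the mean per gene, large-subunit transcripts were at higher levels than small-subunit ones in each of the 7 pools. The pools measure the same genes, so they are not repeats of this comparison between genes. The median large-subunit gene had 15.0, 14.5 and 17.9 TPM in control pools 1, 2 and 4, and 15.8, 17.6, 20.3 and 19.2 TPM in βNrf2KO pools 1 to 4. The median small-subunit gene had 11.5, 7.71 and 12.4 TPM in the control pools and 9.54, 11.7, 11.4 and 10.3 TPM in the βNrf2KO pools. The ratio of these medians was 1.31 to 1.88 over the pools, and the ratio of the means per gene was 1.25 to 1.496. Without the 10 genes covered for at least 20% of their exons the ratio of medians was 1.44 to 2.11. The 20 highest genes by control level held 15 large and 5 small members, and the 20 lowest held 11 and 9.

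The balance between the subunits did not separate the genotypes. The summed large-subunit level over the summed small-subunit level, both per length, was 2.12 in control pool 1, 2.44 in control pool 2 and 2.36 in control pool 4. It was 2.17, 2.25, 2.41 and 2.53 in βNrf2KO pools 1 to 4. The ratio averaged 2.30 ± 0.167 in the control (SD, n = 3) and 2.34 ± 0.162 in the βNrf2KO pools (SD, n = 4). The ranges overlapped, and there are 1.69 times as many large- as small-subunit genes. The products of Mrps18a and Mrps30 sit in the large subunit in structures of the mammalian ribosome despite their names. With both counted there the ratio was 2.40, 2.68 and 2.65 in the control and 2.48, 2.56, 2.78 and 3.04 in the βNrf2KO pools, which again overlapped.

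The summed level of all members was 654, 572 and 698 CPM in control pools 1, 2 and 4, and 679, 678, 759 and 679 CPM in βNrf2KO pools 1 to 4. Control pool 2 was lowest and βNrf2KO pool 3 highest, and the groups overlapped (641 ± 64.2 against 699 ± 39.9 CPM, SD). Within the pool numbers shared by both groups the difference was 25.6 CPM for number 1, 107 CPM for number 2 and -19 CPM for number 4. Members made up 0.0936%, 0.0742% and 0.0971% of nuclear counts in the control pools and 0.0968%, 0.0976%, 0.105% and 0.0987% in the βNrf2KO pools. That share was higher in βNrf2KO for each shared number, by 0.00316, 0.0234 and 0.00154 percentage points for numbers 1, 2 and 4, although the groups overlapped through control pool 4. The median TPM of the large subunit was also higher for each number, by 0.88, 3.13 and 1.32 TPM. That of the small subunit differed by -1.92, 3.97 and -2.05 TPM, and the ratio of large to small by 0.05, -0.19 and 0.17. In whole-islet RNA, fewer cells of a type and less RNA per cell cannot be told apart.

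**Figure D2:**
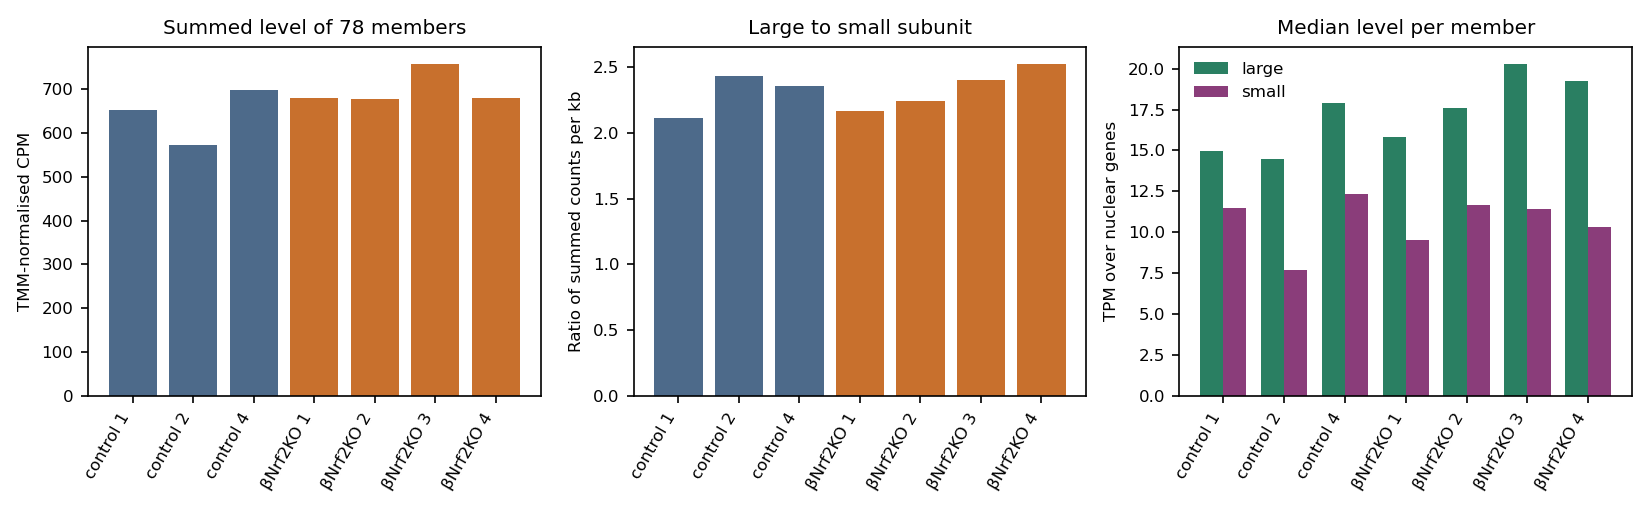
Bars give, for each pool, the summed CPM of the members (left), the ratio of large to small subunit (centre) and the median TPM per gene of each subunit (right); blue bars are control and orange bars βNrf2KO. Control pools span 572 to 698 CPM and βNrf2KO pools 678 to 759 CPM, and the ratio spans 2.12 to 2.44 and 2.17 to 2.53. The median of the large subunit is above that of the small one in every pool.

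Gene by gene, no mitochondrial ribosomal protein passed the test between genotypes. Of 77 tested members 0 had an adjusted p under 0.05 by edgeR's quasi-likelihood test, against 0% of all 19893 tested genes, and the smallest adjusted p was 0.571. DESeq2 and limma-voom also called 0 members. At an unadjusted p under 0.05, 4 members were higher in βNrf2KO (5.19%, against 3.23% of all tested genes) and 0 were lower (against 5.23%). That count was 1 by limma-voom and 5 by DESeq2. It was 0 with the acinar markers as a covariate, and 0 when control pool 2, βNrf2KO pool 3 or βNrf2KO pool 4 was left out. With the pool number as a block 0 members passed the adjusted threshold, against 0.0704% of all tested genes. At an unadjusted p under 0.05 in that fit 5 members were higher (6.49%, against 6.02%) and 0 were lower (against 6.12%).

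The fold changes of the members lay close to 0. Their median log2 fold change was 0.05, with the middle of the distribution from -0.07 to 0.26 (quartiles) and extremes of -0.41 and 0.65. Over all tested genes the median was -0.01 and the quartiles -0.29 and 0.24. The fitted value was above 0 for 45 members (58.4%, against 49.4% of all tested genes) and below 0 for 32. In the median member log2 CPM had an SD of 0.273 over the 7 pools, against 0.382 in the median tested gene. Leaving out control pool 4 brought the members above 0 to 55 and their median to 0.14.

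The median fold changes of large and small subunit lay close together. Of 48 tested large-subunit genes 29 were above 0 (60.4%), with a median of 0.10, and of 29 small-subunit genes 16 were (55.2%), with a median of 0.04. The difference of the medians was 0.06. The difference between the subunits in mean log2 CPM had an SD of 0.0892 between replicate pools. That SD is of single pools and of means, so it is only a rough measure for a difference of median fold changes. Counting Mrps18a and Mrps30 with the large subunit gave medians of 0.12 and 0.01 and a difference of 0.10, which is above that SD. Leaving out βNrf2KO pool 1 gave a difference of -0.01. Proteins with a bacterial homologue and those found only in mitochondria had medians of 0.07 (27 of 46 above 0) and 0.05 (18 of 31).

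**Figure D3:**
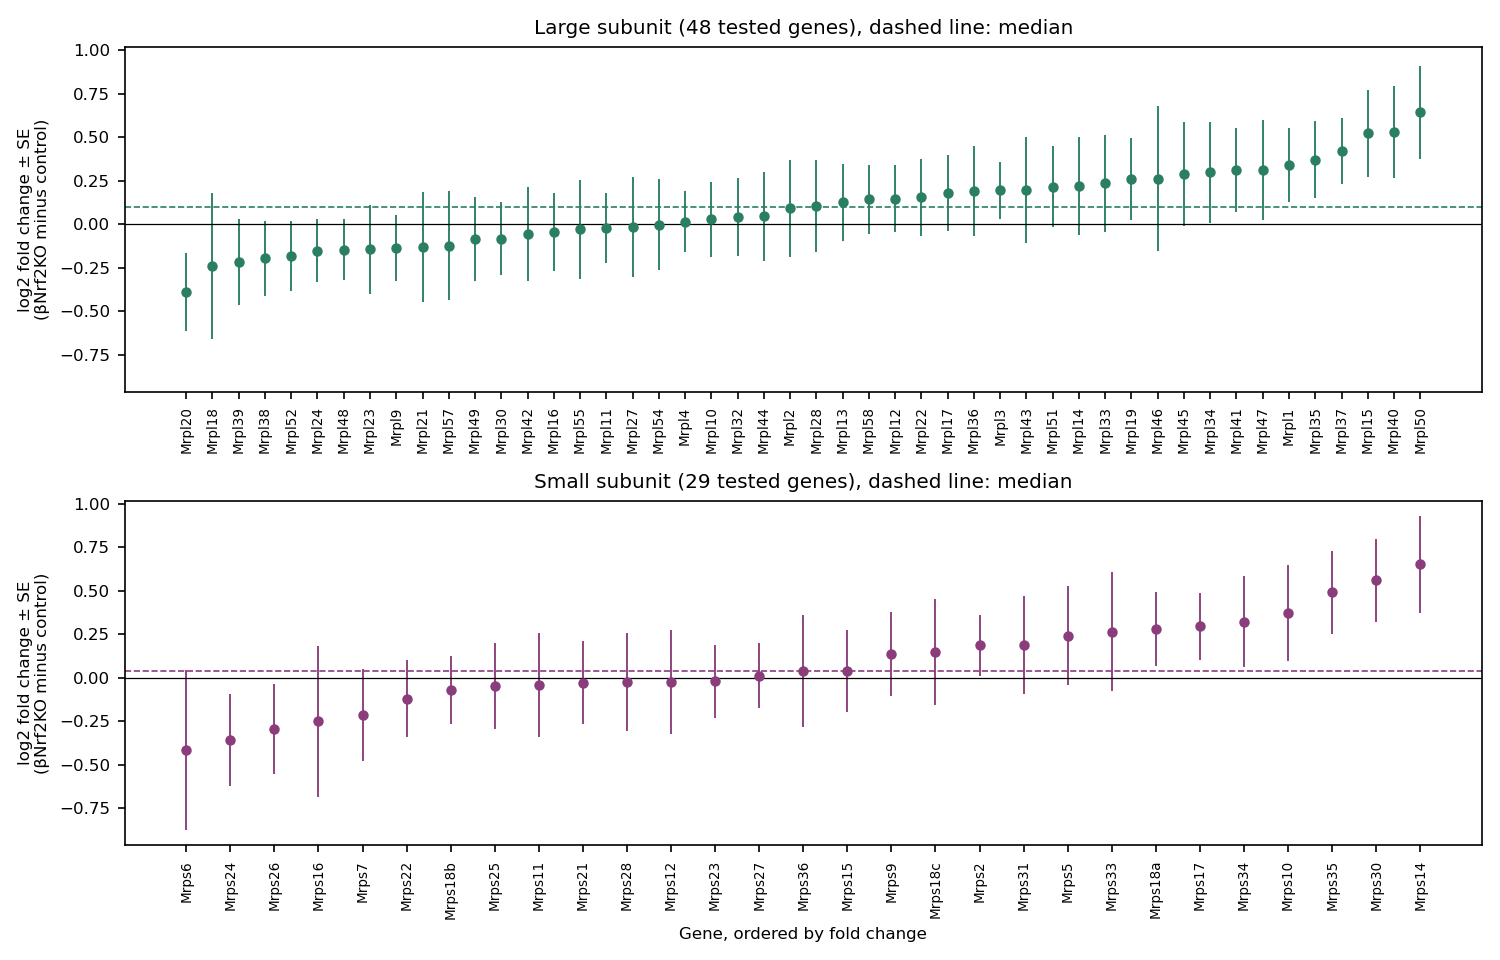
Log2 fold change (βNrf2KO minus control) with SE (vertical lines) for the 77 tested members, the large subunit above and the small below, in order of size, with a dashed line at the median of each subunit. The values run from -0.41 to 0.65 around a median of 0.05, and none passed the adjusted threshold.

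The 6 members with the smallest p all had higher values in βNrf2KO, and 3 carry large- and 3 small-subunit symbols. Mrpl50 had 8.62, 5.01 and 10.7 CPM in control pools 1, 2 and 4, and 11.5, 10.7, 16.1 and 12.6 CPM in βNrf2KO pools 1 to 4. Every βNrf2KO pool was above every control pool, by a small margin over control pool 4, and the log2 fold change was 0.64 ± 0.27 (SE, edgeR adjusted p = 0.571). It was 0.39 without control pool 2 and 0.90 without control pool 4. The gene on the other side of its promoter, Zfp189, had a log2 fold change of 0.49. For Mrpl37 (0.42), which also has such a neighbour, that gene, Cyb5rl, had -0.006. A shared effect on such pairs was not tested.

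Mrps30, a large-subunit component by structure, had 7.09, 5.08 and 7.63 CPM in the control and 8.44, 8.27, 10.4 and 11.9 CPM in the βNrf2KO pools. The groups did not overlap and the log2 fold change was 0.56 ± 0.24 (edgeR adjusted p = 0.571). A gene on the opposite strand, B430218F22Rik, covers 37.8% of its exonic bases, and reads there can be told apart only if the counting used strand, which is not given. Mrps14, a homologue of a bacterial protein in the head of the small subunit, had 4.82, 3.36 and 4.48 CPM in the control and 5.98, 4.58, 7.35 and 8.66 CPM in the βNrf2KO pools. Control pool 1 and βNrf2KO pool 2 overlapped, and the log2 fold change was 0.65 ± 0.28 (edgeR adjusted p = 0.571).

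Mrpl37, specific to mitochondria, had 14.9, 12.1 and 18.1 CPM in the control and 18.3, 19.2, 22.2 and 20.9 CPM in the βNrf2KO pools. The groups were apart by little, and the log2 fold change was 0.42 ± 0.19 (edgeR adjusted p = 0.571). Mrpl15, homologue of a bacterial large-subunit protein, had a log2 fold change of 0.52 ± 0.25, and its value in control pool 1 (12.5 CPM) exceeded that of βNrf2KO pool 2 (11.3 CPM). Mrps35, a mitochondrial addition to the small subunit, had 8.06, 4.81 and 7.995 CPM in the control and 9.14, 8.51, 10.8 and 10.8 CPM in the βNrf2KO pools. Its groups did not overlap, and the log2 fold change was 0.49 ± 0.24. In all 6 genes control pool 2 had the lowest value. Its omission lowered the fold change most in each of them except Mrps14, for which that was βNrf2KO pool 4, without which its log2 fold change was 0.50.

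Among members with lower values in βNrf2KO, the 6 with the smallest p had larger p than those above. Mrpl20, homologue of a bacterial protein needed to assemble the large subunit, had 6.92, 7.05 and 6.60 CPM in the control pools and 5.77, 5.98, 4.87 and 4.29 CPM in the βNrf2KO pools. Every βNrf2KO pool was below every control pool, with a log2 fold change of -0.39 ± 0.22 (edgeR adjusted p = 0.589) that stayed between -0.46 and -0.31 when any pool was left out. Mrpl52 also did not overlap, with 7.54, 7.58 and 8.56 CPM against 7.27, 7.24, 6.83 and 6.495 CPM, and a log2 fold change of -0.18 ± 0.20 (edgeR adjusted p = 0.753).

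The remaining 4 overlapped between groups. Mrps24, at the mRNA entry of the small subunit, had 3.69, 4.75 and 4.55 CPM in the control and 2.51, 3.65, 3.70 and 3.63 CPM in the βNrf2KO pools, with a log2 fold change of -0.36 ± 0.26. Mrps26, specific to mitochondria, ran from 5.67 to 6.60 CPM in the control and from 3.67 to 6.95 CPM in the βNrf2KO pools (-0.29 ± 0.26). Mrpl38, another mitochondrial addition, ran from 13.2 to 17.7 and from 10.02 to 16.4 CPM (-0.20 ± 0.22). Mrps6, homologue of a small-subunit protein of bacteria, ran from 0.79 to 2.84 and from 0.80 to 1.87 CPM (-0.41 ± 0.46), and its log2 fold change moved to -0.03 without control pool 1 and to -0.76 without control pool 2.

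**Figure D4:**
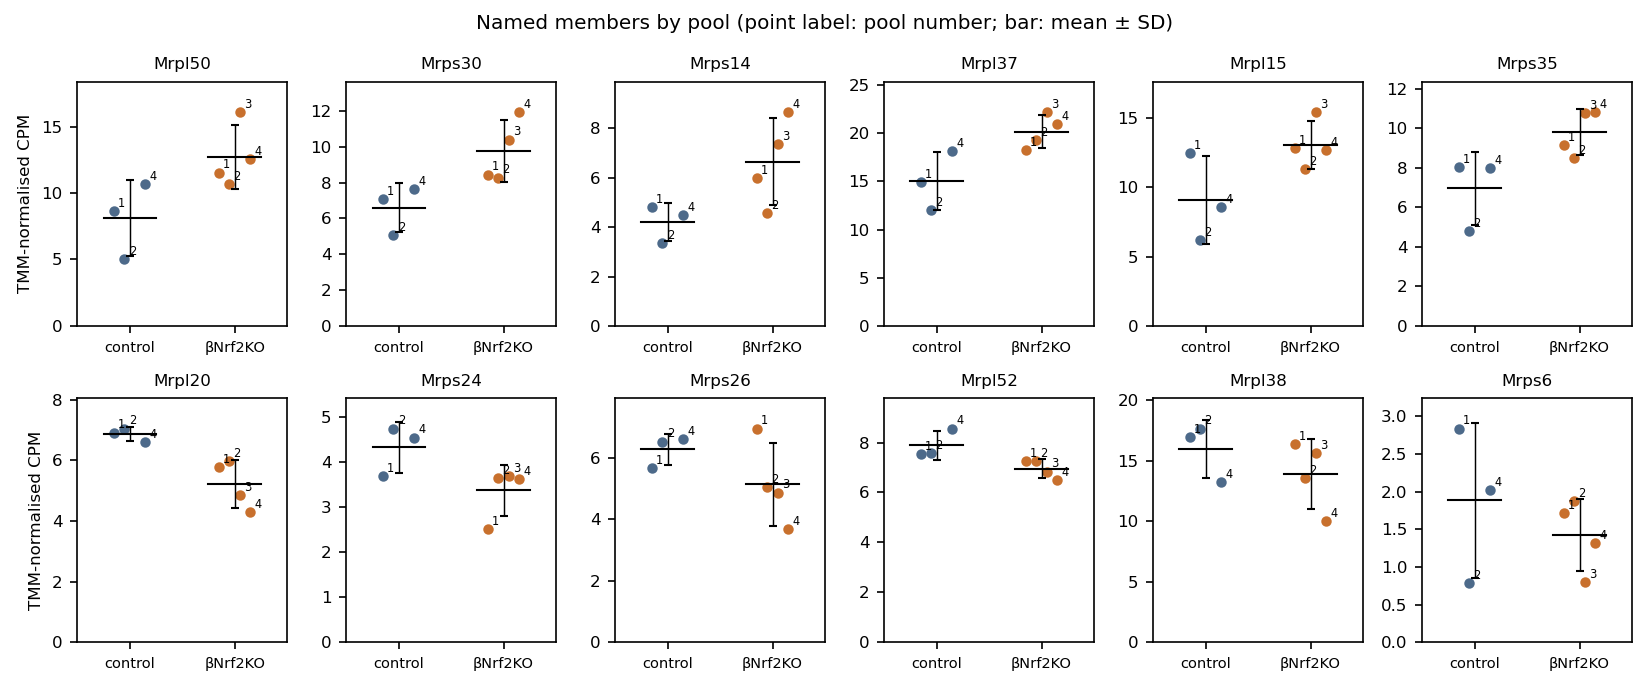
CPM in each pool (points labelled by pool number) for the 6 members with the smallest p among those with higher values in βNrf2KO (top) and the 6 among those with lower values (bottom), with bars for the mean ± SD of each group. Mrpl50, Mrps30, Mrpl37, Mrps35, Mrpl20 and Mrpl52 show no overlap between the groups, and the other panels do.

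Over all tested members, groups did not overlap for 5 that were higher in βNrf2KO (6.49%, against 3.19% of all tested genes) and 2 that were lower (2.6%, against 3.8%). The higher ones were Mrpl50, Mrps30, Mrpl37, Mrps35 and Mrpl35, and the lower ones Mrpl20 and Mrpl52. Mrpl35, homologue of a bacterial large-subunit protein, was singled out after its values were seen. It had 4.14, 4.81 and 4.98 CPM in the control and 5.88, 5.80, 6.09 and 6.31 CPM in the βNrf2KO pools, with a log2 fold change of 0.37 ± 0.22 (edgeR adjusted p = 0.597). Its 4 βNrf2KO values lay closer together than its control values.

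The 3 paralogs of bacterial protein S18 are a case where mitochondria use related proteins at different sites of the ribosome. Mrps18c and Mrps18b belong to the small subunit and Mrps18a to the large one. Mrps18a had 11.5, 7.05 and 10.4 CPM in the control and 11.9, 11.1, 12.1 and 11.96 CPM in the βNrf2KO pools, with a log2 fold change of 0.28 ± 0.21 (edgeR adjusted p = 0.654). Mrps18b ran from 11.4 to 13.6 and from 10.2 to 13.5 CPM (-0.07 ± 0.20, edgeR adjusted p = 0.914), and Mrps18c from 2.11 to 4.28 and from 2.94 to 4.40 CPM (0.15 ± 0.31, edgeR adjusted p = 0.873). All 3 overlapped between groups. Per length, Mrps18b was highest in the control pools (25.3 TPM), above Mrps18c (12.8 TPM) and Mrps18a (11.2 TPM).

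The pools differed in how many members they held at an extreme. Control pools 1, 2 and 4 were the highest pool for 6, 9 and 16 members, and βNrf2KO pools 1 to 4 for 13, 2, 26 and 5. They were the lowest pool for 15, 35 and 2 members and for 7, 2, 4 and 12. Control pool 2 thus held the lowest value of 45.5% of members, against 28.5% of all tested genes, and βNrf2KO pool 3 the highest value of 33.8%, against 14.3%. Control pool 2 also had the largest mitochondrial share (51.8%), the largest mesenchymal (2770 CPM) and neural and glial sums (113 CPM) and the smallest endocrine sum (22600 CPM), and βNrf2KO pool 3 the largest endocrine sum (65190 CPM). The part of these in the ribosomal protein values was not tested.

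**Figure D5:**
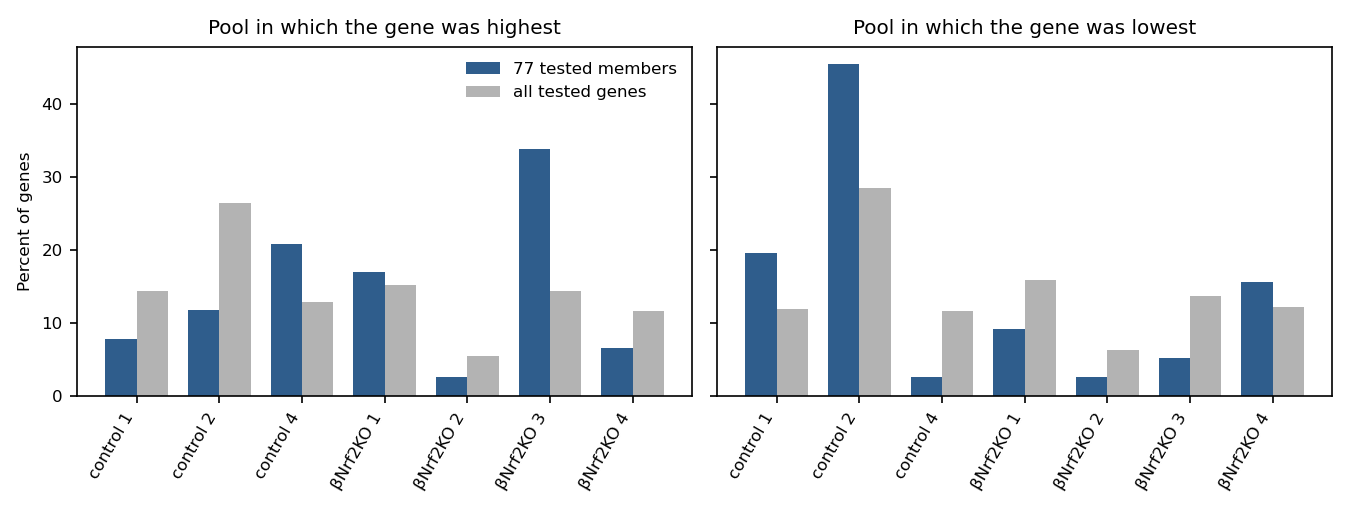
Percent of the 77 tested members, and of all tested genes, whose highest (left) or lowest (right) CPM fell in each pool. Control pool 2 holds the lowest value of 45.5% of members and βNrf2KO pool 3 the highest value of 33.8%.

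Members varied together only weakly. The median correlation of log2 CPM over the 7 pools was 0.136 over 2926 pairs of members, 0.122 between large-subunit genes, 0.171 between small-subunit genes and 0.144 between the subunits. Over 9946 pairs drawn from all tested genes it was -0.00346. The points share library and depth, and with 7 pools these are descriptions. Against the mean of the other members, 58 genes had a correlation above 0 and 31 above 0.5. The same share was not computed over all tested genes, so these counts do not set the members apart from other genes. Mrpl51 (0.982), Mrps18c (0.957) and Mrpl22 (0.922) followed that mean most closely, while Mrpl24 (-0.934), Mrpl9 (-0.758) and Mrps25 (-0.637) ran opposite to it. Mrpl24, the gene with the highest level, and Mrps25 are both covered by other genes over at least 20% of their exons. The same holds for Mrps18c (23.2%), which followed the mean. Apart from Mrps18c, Mrpl24 and Mrps25, the genes named for these correlations were picked with their values known.

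The members were also split by length. Above the median tested length of 2072 bp 24 of 38 members had a log2 fold change above 0 (median 0.18), and at or below it 21 of 39 did (median 0.03). Other protein-coding genes above and below the same length had medians of -0.01 (48.8% above 0) and -0.06 (44.0%). The summed CPM of longer over shorter members was 2.36 in control pool 1, 1.94 in control pool 2 and 1.91 in control pool 4, and 2.2, 2.18, 2.2 and 2.22 in βNrf2KO pools 1 to 4, so that control pool 1 was above and the remaining control pools were below all βNrf2KO pools.

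Medians by promoter letters all lay between -0.02 and 0.15. The 14 members with an antioxidant response element had a median log2 fold change of 0.15, with 10 above 0, and the 54 without had 0.03, with 29 above 0. The 25 tested members with the ETS core had a median of -0.02 (12 above 0), and the 43 without had 0.09 (27 above 0). Medians for the NRF-1 letters with a free centre were 0.04 with (7 of 13 above 0) and 0.09 without, and for the YY1 core 0.10 with (5 of 8) and 0.04 without.

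Genes that work with these proteins were counted in the same way. Of 5 ribosomal proteins with other names 3 were above 0 (median log2 fold change 0.13), among them Ptcd3, an RNA-binding protein of the small subunit (0.22 ± 0.22), while Dap3, its GTP-binding protein, was below (-0.12 ± 0.17). Of 28 assembly factors 18 were above 0 (median 0.14), with Fastkd2, an RNA-binding factor of large-subunit assembly, at 0.46 ± 0.20 and Mpv17l2 at 0.49 ± 0.25. At an unadjusted p under 0.05 1 of the 28 was higher, against 3.23% of all tested genes, and 0 were lower, against 5.23%. The edgeR adjusted p values were at least 0.571 for every list.

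Of 15 translation factors 12 were above 0 (median 0.28). Gfm1, the elongation factor that moves the ribosome along the mRNA, had 0.55 ± 0.20, and Pdf, the peptide deformylase that removes the formyl group from the first methionine of new chains, had -0.94 ± 0.39. At an unadjusted p under 0.05 they were the higher and the lower member of that list, against 3.23% and 5.23% of all tested genes. Of 20 tRNA synthetases and related enzymes 11 were above 0 (median 0.04), with Rars2, which charges arginine tRNA, at 0.41 ± 0.18 and Vars2, which charges valine tRNA, at -0.43 ± 0.23. Of 12 nuclear regulators 6 were above 0 (median 0.03), with Myc at -0.49 ± 0.29 and Yy1 at 0.23 ± 0.16.

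The mRNAs that this ribosome translates had lower log2 fold changes between genotypes than the mRNAs of its proteins. All 13 mRNAs of the mitochondrial genome had log2 fold changes below 0, with a median of -1.49. The groups overlapped for all 13. For example, mt-Nd1 had 75700, 119700 and 17770 CPM in control pools 1, 2 and 4. In βNrf2KO pools 1 to 4 mt-Nd1 had 37550, 28970, 27010 and 10830 CPM. The 13 mRNAs varied together over the pools and are not independent results. The smallest p was that of mt-Nd3 (-1.81 ± 0.58) and mt-Nd2 (-1.47 ± 0.55), both subunits of complex I. By edgeR 0 passed the adjusted threshold, with the smallest adjusted p at 0.571. At an unadjusted p under 0.05 11 were lower, against 5.23% of all tested genes. With the pool number as a block 3 passed the adjusted threshold, against 0.0704% of all tested genes. These were mt-Nd3, mt-Atp8 and mt-Atp6, named after their values were seen, and they had 1.58 to 88.3 CPM over the pools. The mRNAs mt-Nd4l, mt-Co2 and mt-Co3 also lay low, at 4.81 to 99.5 CPM. The rule for multi-mapped reads is not given, so the values of these low mRNAs are uncertain. Why they lay so far below the other mitochondrial mRNAs was not tested. The mRNAs mt-Nd1, mt-Co1 and mt-Nd5, at 10830 to 254600 CPM, did not pass in the fit with the block. In the same pools the median log2 fold change over the ribosomal proteins was 0.05. The median SD of log2 CPM over the 7 pools was 1.22 for the 13 mRNAs against 0.273 for the ribosomal proteins.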

How the data were processed

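RNA was depleted of ribosomal RNA and sequenced from 7 pools. The authors deposited raw counts per gene, which per the submitters' processing notes came from featureCounts (Subread 1.5.2) after bcl2fastq 2.20, Trimmomatic 0.36 and STAR 2.5.2b. The counting's strand setting, its rule for multi-mapped reads and its gene annotation are not given in the sources used here. GRCm39 is named there, but 44737 of 48970 shared gene IDs (91.4%) had the start and end of GENCODE M21, so coordinates are GRCm38. The Cre entry was left out, and a combined table with the same counts was not used here. The mitochondrial rRNAs were not analysed here.

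Genes were tested with edgeR 4.0.16 in R 4.3.3 (package data.table, 1.17.8): TMM, filterByExpr, robust quasi-likelihood fit, two-sided test and Benjamini-Hochberg adjustment over 19893 genes at a threshold of 0.05. The script was tested on simulated data. CPM is scaled by TMM library sizes, and log2 CPM used a prior count of 2. TPM divides counts by the exonic length in the files and scales them to a common total over nuclear genes. Errors are SE for log2 fold changes and SD for group means. A count of 0 allows up to 3 counts, for counting error only.

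The members, gene lists and tests were chosen with earlier results of these data known. Named by rule were the 6 members with the smallest p in each direction, the 3 highest and 2 lowest by level per subunit, the Mrps18 paralogs, Mrps30, members failing the filter, Nfe2l2 and up to 2 genes per list. Symbols and promoters came from the reference tables (48970 IDs matched, 345 did not), motifs were exact matches, and protein sequences were not used here.

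Same-numbered pools correlated in their deviations from the group means at 0.376, 0.229 and 0.323 (numbers 1, 2 and 4), and pools of different number at -0.353 to 0.241. The number was taken to pair pools, with βNrf2KO pool 3 unpaired, although the labels do not say what it stands for. Control pool 4 with βNrf2KO pool 3, at 0.241, exceeded the pair of number 2, so these correlations do not settle the pairing. Alternatives were RLE scaling, library sizes without the mitochondrial genome, plain CPM, no filter, at least 1 CPM in 3 pools, DESeq2 1.42.0, limma-voom (limma 3.58.1), the pool number as a block, an acinar covariate, each pool left out, a threshold of 0.1 and other subunit assignments.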

Additional observations from a re-analysis of the deposited data

Results flagged for a closer look

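In 7 of 80 groups of 4 βNrf2KO pools screened, 1 pool lay far from the other 3, with a gap over the whole range above Dixon's critical value of 0.829. Chance gives about 1 in 20. Pool 1 was low for Mrps5 (gap 0.937 of the range) and for Mrps24 (0.945). Pool 2 was high for Mrpl48 (0.85) and low for Mrps18a (0.839). Pool 4 was high for Mrps31 (0.831) and low for Mrps16 (0.842). Pool 3 was high for the summed CPM of all members (0.988), at 759 CPM against 678 to 679 CPM in the other βNrf2KO pools.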

How the results depend on the processing

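No member passed an adjusted p of 0.05 under any alternative or with any pool left out, nor at 0.1, and the smallest adjusted p of a member ranged from 0.179 to 1. Over all genes 2 passed by DESeq2 and 14 with the pool number as a replicate block (0.0704% of genes), and 0 to 1 when a pool was left out. With the block, 0 members passed, 46 had values above 0, and their median log2 fold change was 0.07. At an unadjusted p under 0.05, 5 members (6.49%) against 6.02% of genes were higher. The block changed no call of a member at the adjusted threshold. At that unadjusted p Mrpl37 dropped out, and Mrpl15 and Mrps10 came in. All genes at that p numbered 1683, 2620 without a filter, 988 with the acinar covariate, and 474 to 3446 when a pool was left out. Members at that p numbered 4, and 0 to 6 when a pool was left out, with 6 without control pool 1 and 6 without control pool 4. The log2 fold change of Mrps18b was 0.00876 with the acinar covariate and -0.15 to 0.0034 when a pool was left out, turning positive without control pool 2. That of Mrps18c was -0.0756 to 0.42 when a pool was left out, turning negative without control pool 2. The log2 group ratio of large to small subunit was 0.02, and 0.14 with medians in place of sums. The log2 group ratio of summed CPM was 0.12, and 0.47 without TMM scaling, where norm factors ran from 0.625 to 1.31. Other scalings kept the median of all genes within 0.1 of the reported one. Chosen after seeing the data, leaving out members covered for at least 20% of their exons gave a log2 ratio of large to small of 0.06 and a median of 0.04. Leaving out Mrps36, a member by symbol alone and also a choice made after seeing the data, gave a log2 ratio of 0.02. The cause of these shifts was not tested. Depth limits Mrpl53, with 27 counts over all pools.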
